A study of Gallus gallus with 32 samples.

Results

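Molecular chaperones and folding enzymes form the families described here: HSP90, HSP70, the mitochondrial chaperonin, small heat shock proteins, J proteins, BAG cofactors, the cytosolic chaperonin TRiC, protein disulfide isomerases, cyclophilins and FKBP proteins, measured in the anterior pituitary gland of chickens. Members were chosen by gene symbol alone, with HSPA5 left out, and had to have a value on at least 24 of the 32 arrays. Of 107 probes that matched, 97 met this minimum, and they stand for 57 genes out of 5738 genes measured. Another 10 probes fell short, with 23 arrays for the fullest of them, against 24 for the sparsest member, and FKBP10, DNAJC9, DNAJC22 and DNAJA4 were lost with them. All 97 member probes were tested, and 73 had a value on every array. Each gene stands for its brightest probe. Probe numbers give the grid block, row and column of a spot. No sequence of a probe or promoter was used.

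Chaperones bind proteins that are not yet folded and keep them from clumping, and many spend ATP in cycles of binding and release. J proteins deliver clients to HSP70 and start its ATP cycle, BAG proteins reset that cycle, and HSP90 finishes a narrower set of clients. TRiC is a ring of related subunits that folds actin and tubulin in the cytosol, HSPD1 and HSPE1 form the matching chamber in mitochondria, and disulfide isomerases, cyclophilins and FKBP proteins catalyse slow steps of folding. An endocrine gland makes peptide hormones in bulk and folds them in the endoplasmic reticulum before they enter granules.

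The birds belonged to a Fat line and a Lean line bred in opposite directions on the weight of their abdominal fat, raised as standard broilers and sampled at an age of 1, 3, 5 or 7 weeks. The 8 groups hold 4 arrays each, called biological replicates in the design text, which does not say whether a sample is 1 bird or a pool, and no sex is given. Every array set the amplified RNA of a sample, labelled with Cy3, against a Cy5 pool of all 32 RNAs, so a value is a log2 ratio of sample over pool. As labelled, groups differ in line and age alone. Whether replicates share a hatch or pen is not stated, so p-values measure the spread between these samples. The day in the file headers is not balanced over ages. No header day holds arrays of both week 1 and week 7, and 1 day holds 4 arrays of week 7 alone. For that change, age and header day therefore cannot be fully told apart.

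Between 14008 and 16134 spots were usable on each array. The lean and the fat file of week 7 replicate 2 hold the same scan, whose line was not settled. Both were left out of the model, which used 30 arrays, with 6 at week 7. Lean week 7 replicate 3 and fat week 7 replicate 4 stood apart in another way: their ratios had an SD over all tested probes of 0.689 and 0.557, against 0.234 to 0.423 on the other 30 arrays. The changes from week 1 to week 7 that passed are therefore also given without these wide arrays, a setting added once their spread was known. Both wide arrays bear the header day that holds 4 arrays of week 7 alone. Many changes that did not pass, such as those of DNAJA1, PPID and HSPA4, are given with the wide arrays only. Of 10 hormone cell markers of the gland, 7 were measured, among them GH, PRL and POMC, and none of the 7 passed from week 1 to week 7 or between the lines. From week 1 to week 7, 2 were positive and 5 negative, from -0.43 for GH (SE 0.24) to 0.63 for TSHB (SE 0.26). At week 7 the fat minus lean difference was 1.70 for FSHB and -0.97 for TSHB, with 3 positive and 4 negative. The lack of calls therefore does not show that these markers were stable.

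The comparison of week 1 with week 7 asked how the folding families change with age. Among the members, the TRiC subunits CCT4, CCT8, CCT6A and CCT7 fell, the cochaperonin HSPE1 fell at a pair of probes, and the J protein DNAJC12 and the nuclear cyclophilin PPIG fell. PPIC, a cyclophilin of the secretory pathway, and FKBP1A, a small cytosolic FKBP, rose. Weaker probes of DNAJC16, DNAJC11, HSPA9 and DNAJB5 rose as well, and another probe of DNAJB5 fell. Those of DNAJC16, DNAJC11 and HSPA9 were dim, with a mean log2 brightness of 9.64, 9.24 and 9.82. The median over all tested probes was 11.23. In all, limma called 15 of the 97 probes, 6 higher and 9 lower at week 7, at an adjusted p under 0.05, and they belong to 13 genes. That is 15.5% of member probes against 16.0% of all 14688 tested probes, so the share itself does not set these families apart. Higher calls made up 6.19% of members against 8.95% of all probes, and lower calls 9.28% against 7.05%. At an unadjusted p under 0.05 there were 33 members, against 32.7% of all probes. The median change was -0.04 over the members and -0.02 over all probes. Counted by brightest probe, 8 of 57 genes passed, 2 higher and 6 lower (14.0%, against 17.8% of all genes, of which 9.45% were higher and 8.31% lower), with a median of -0.10 against -0.03.

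**Figure D1:**
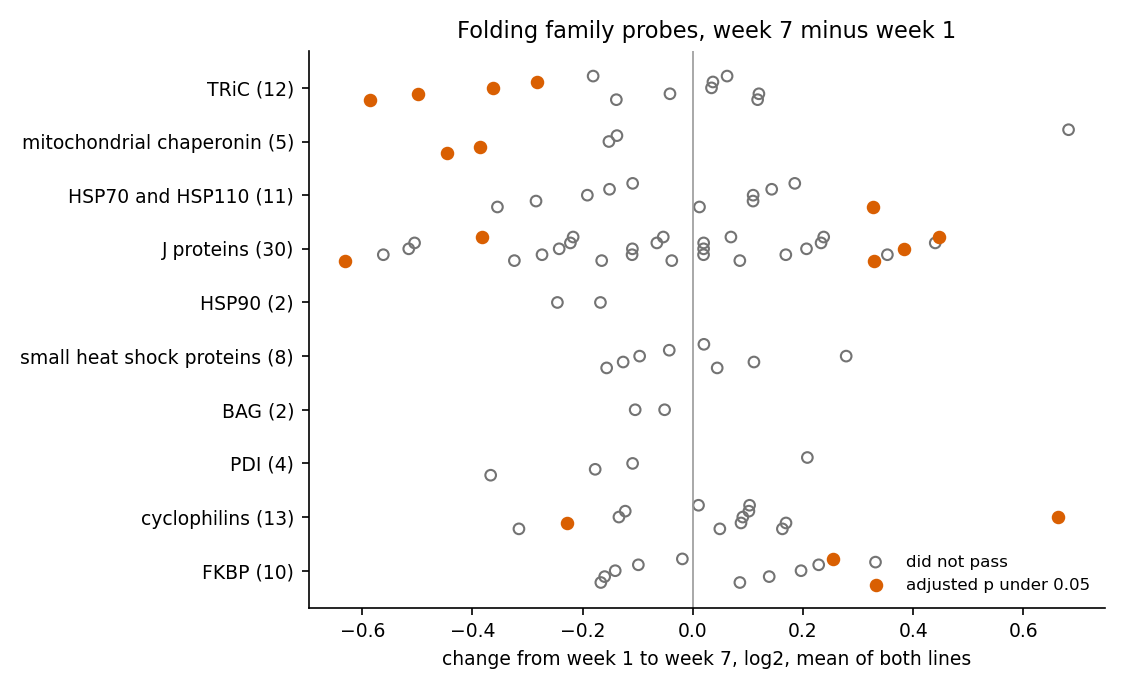
Change from week 1 to week 7 (x axis, log2, mean of both lines) of the 97 probes by family (y axis, number of probes in brackets). Filled points passed at an adjusted p under 0.05; in TRiC all 4 of them lie below 0, and the highest filled point is the cyclophilin PPIC at 0.66.

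These counts leaned on the wide arrays. With both of them left out, 4 member probes passed, namely CCT4, CCT6A, PPIC and a weaker probe of HSPE1, all of them among the 15, and the share of all probes fell to 3.98%. When fat week 7 replicate 4 alone was dropped the count was 6 (6.19% of members, against 6.90% of all probes), and when lean week 7 replicate 3 alone was dropped it was 10 (10.3% against 7.08%). Dropping fat week 7 replicate 1 instead gave 25 (25.8% against 22.1%). Bulk RNA was measured, so fewer cells of a type and less RNA per cell cannot be told apart.

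TRiC held the most called falls. At the brightest probe 4 of its 7 measured genes were called lower and none was called higher, where 8.31% of all genes were called lower. With loess fitted in each grid block of the array the calls of CCT8, CCT6A and CCT7 ended, leaving CCT4, and in the authors' deposited table CCT4 and CCT6A passed. CCT4 stood at 0.49, 0.26, 0.59 and 0.40 on the 4 lean arrays of week 1 and at 0.10, 0.43, 0.38 and 0.28 on the 4 fat arrays. By week 7 it read -0.09, -0.09 and -0.19 in the lean line and -0.15, -0.02 and -0.26 in the fat line. All 6 arrays of week 7 lay below all 8 of week 1, in both lines. A separation of this kind was seen for 5 of the 97 members and 2.33% of all probes, upward for 3 members and 1.61% of probes, downward for 2 members and 0.722% of probes. The fall of CCT4 came to -0.50 on the log2 scale (SE 0.07, 1.41-fold, adjusted p = 3.18e-05), with -0.56 in lean and -0.44 in fat birds.

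Most of the fall of CCT4 came early. From week 1 to week 3 the ratio dropped by 0.31 (adjusted p = 0.0156), which made CCT4 the sole member called in that interval (1.03% of members, against 0.517% of all probes, with lower calls at 0.123%). At an unadjusted p under 0.05 there were 8 members, against 6.63% of all probes. Its median over both lines went from 0.39 at first to 0.06, then to -0.06 and at last to -0.12 over the 4 ages. The early call was lost without lean week 3 replicate 2 (adjusted p = 0.0560) or fat week 3 replicate 4 (adjusted p = 0.0518), although the change was -0.30 in both cases. Arrays whose headers bear the same day gave drops of -0.28, -0.30 and -0.06 for this interval. The last sets lean week 3 replicate 1 against fat week 1 replicate 1, so it mixes line with age. No header day holds arrays of both week 1 and week 7. The change to week 7 was -0.48 (adjusted p = 0.000416) without both wide arrays, and in the authors' deposited table -0.41.

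CCT8 had the largest fall of the ring, and its arrays spread more. Its ratios at week 1 were -0.05, -0.21, -0.15 and 0.34 in the lean line and -0.07, 0.34, -0.24 and 0.07 in the fat line. At week 7 they were -0.19, -0.75 and -0.65 in lean and -0.18, -0.30 and -1.41 in fat birds. The groups overlapped, and the lowest value belongs to fat week 7 replicate 4, a wide array. The change was -0.59 (SE 0.15, adjusted p = 0.00978), and it was -0.39 (adjusted p = 0.0443) without that array and -0.34 (adjusted p = 0.136) without both wide arrays. Loess per block gave -0.31 (adjusted p = 0.0521), and the authors' deposited table -0.28 (adjusted p = 0.156 in the same model).

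CCT6A read 0.65, 0.63, 0.39 and 0.50 in lean samples and 0.36, 0.58, 0.77 and 0.46 in fat samples at week 1. Week 7 brought 0.28, 0.64 and 0.13 in lean and -0.07, 0.36 and -0.25 in fat birds. The ranges overlapped in both lines. Its fall was -0.36 (SE 0.10, 1.29-fold, adjusted p = 0.0197), and the adjusted p was 0.0862 without fat week 7 replicate 4 and 0.0400 without both wide arrays. Loess per block gave -0.27 (adjusted p = 0.0646), and the authors' deposited table -0.54 (adjusted p = 0.00731 in the same model).

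CCT7 moved from 0.53, 0.14, 0.07 and 0.01 in lean samples to -0.09, -0.42 and -0.03, with no overlap. In fat birds it went from -0.02, 0.12, -0.05 and -0.28 to -0.24, -0.14 and -0.38, and there the ages overlapped. The change of -0.28 (SE 0.09, adjusted p = 0.0267) became -0.19 (adjusted p = 0.270) without both wide arrays. It was also lost without any 1 of 4 arrays, namely lean week 1 replicate 1 (adjusted p = 0.0579), fat week 1 replicate 2 (adjusted p = 0.0633) and either wide array. It was lost too with loess per block (-0.21, adjusted p = 0.123) and in the authors' deposited table (-0.21, adjusted p = 0.119 in the same model).

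**Figure D2:**
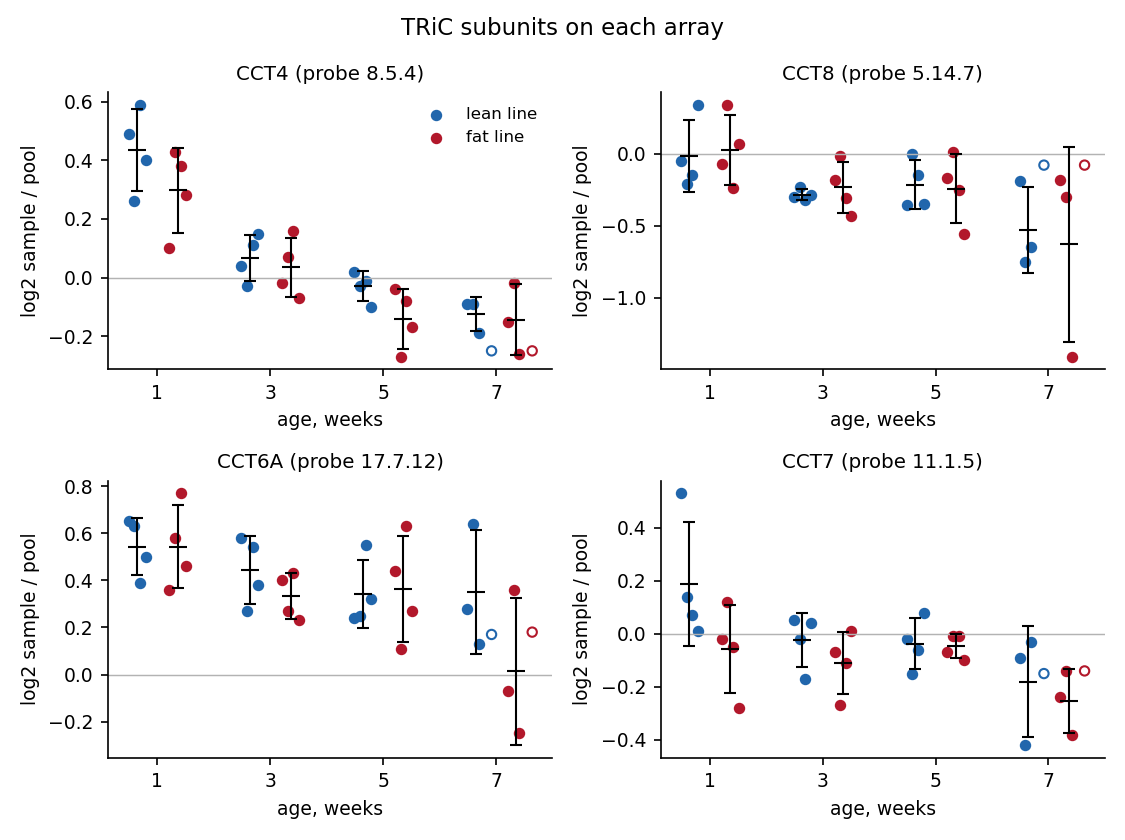
Log2 ratio of sample over pool (y axis) of CCT4, CCT8, CCT6A and CCT7 on each array by age in weeks (x axis). Points are arrays, blue for lean and red for fat, bars are mean and SD of a group, and open circles are the shared week 7 scan, which no mean includes; CCT4 alone of these 4 has every week 7 array below every week 1 array.

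The remaining subunits did not pass. The change was -0.14 for TCP1, -0.04 for CCT5 and 0.03 for CCT2. Not all probes of the called subunits moved alike. A second CCT4 probe gave 0.04 (SE 0.08), and the other CCT7 probes gave 0.12 and -0.18, none past the threshold. CCT8 and CCT6A have 1 probe each.

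In mitochondria, HSPE1, the lid of the HSP60 chamber, had 3 probes that all pointed down. The brightest did not pass, at -0.14 (adjusted p = 0.351), whereas the other probes gave -0.45 (adjusted p = 0.0193) and -0.39 (adjusted p = 0.0157). These weaker probes are outside the rule for named genes and were chosen after their values were seen. At the last of them HSPE1 read 1.18, 0.70, 1.07 and 0.76 in fat samples at week 1 and 0.26, 0.59 and 0.62 at week 7. In lean birds it read 0.51, 0.71, 0.89 and 0.69, then 0.40, 0.52 and 0.18. The ages did not overlap in the fat line and overlapped in the lean line, where 0.52 at week 7 stands above 0.51 at week 1. Without both wide arrays that probe changed by -0.46 (adjusted p = 0.0262) and the other weaker probe by -0.22 (adjusted p = 0.280), while leaving out either wide array alone also ended the call of the latter, with -0.29 (adjusted p = 0.0915) when the lean one was dropped.

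HSPD1, the chamber itself, gave no such picture. Its brightest probe had a change of 0.68 (SE 0.26) with an adjusted p of 0.0747, which misses the threshold, and its other probe gave -0.15 (adjusted p = 0.232). Ratios of the brightest probe ran from -1.03 to 0.46 at week 1, with a median of 0.09, and from -0.14 to 1.09 at week 7, with a median of 0.75 over the 5 arrays with a value. The change was 0.45 (adjusted p = 0.521) without both wide arrays and 0.86 (adjusted p = 0.0231) without fat week 7 replicate 1. With the replicate number as a block it was 0.73 (adjusted p = 0.0336).

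Among HSP70 proteins, 1 of 11 probes passed, where 16.0% of all tested probes did. It is a weaker probe of HSPA9, the HSP70 of the mitochondrial matrix, at 0.33 (adjusted p = 0.0373), chosen after its values were seen. The other HSPA9 probes gave 0.19 and 0.14, so all 3 had the same sign and 1 was called. That call was lost without any 1 of 9 arrays, 5 of week 1 and 4 of week 7, both wide arrays among them, with an adjusted p of at least 0.0533. The value was 0.30 (adjusted p = 0.205) without both wide arrays and 0.11 (adjusted p = 0.515) with loess per block. HSPA13, an HSP70 relative of the endoplasmic reticulum, had the largest change in its family among brightest probes, at -0.35 (SE 0.14, adjusted p = 0.0774), and -0.17 without fat week 7 replicate 4. It was -0.06 (adjusted p = 0.810) without both wide arrays, though its adjusted p was 0.0186, 0.0331 and 0.0412 on leaving out in turn fat replicate 1, lean replicate 4 or fat replicate 3 of week 7. HSPA8, the constitutive cytosolic HSP70, gave -0.28, -0.11 and -0.19 at its 3 probes, and HSPA4, an HSP110 that recharges HSP70, gave -0.15. None of these passed. HSPA4 read -0.61 on the lean wide array and 0.34 on the fat one.

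The J proteins were the largest family, with 20 genes and 30 probes, and their calls split 3 higher and 2 lower. Of all tested probes, 8.95% were called higher and 7.05% lower. DNAJC12, a J protein known in humans to assist aromatic amino acid hydroxylases, fell most. Its ratios were 0.07, -0.07, 0.65 and -0.41 in lean samples and 0.08, 0.07, 0.14 and -0.13 in fat samples at week 1. At week 7 they were -0.29, -1.19 and -0.33 in lean and -0.22, 0.08 and -1.53 in fat birds. The ages overlapped in both lines, and the lowest value in each line came from its wide array. The change of -0.63 (SE 0.20, 1.55-fold, adjusted p = 0.0321) became -0.24 (adjusted p = 0.474) without both wide arrays, and the call was also lost without fat week 7 replicate 4 alone (-0.39, adjusted p = 0.158), lean week 7 replicate 3 alone (-0.49, adjusted p = 0.137) or any 1 of 3 arrays of week 1, lean replicate 3, fat replicate 1 and fat replicate 2. Loess per block gave -0.31 (adjusted p = 0.183), and the authors' deposited table -0.19, which did not pass in the same model.

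The other calls among J proteins came from weaker probes and were chosen after their values were seen. DNAJC16, a J protein of the endoplasmic reticulum, had a rise of 0.45 (SE 0.11, adjusted p = 0.00628) at the probe whose 6 week 7 arrays all lay above the 8 of week 1. Its ratios there ran from -0.35 to 0.06 at week 1 and from 0.07 to 0.78 at week 7. The brighter DNAJC16 probe gave -0.07 (adjusted p = 0.699). DNAJC11, which sits on mitochondrial membranes, rose by 0.38 (adjusted p = 0.0325), with 0.23 at its brighter probe, and leaving out any 1 of 6 arrays ended that call, with an adjusted p of 0.0546 to 0.128. DNAJB5, a cytosolic relative of DNAJB1, had 1 probe at -0.38 (adjusted p = 0.00974) and another at 0.33 (adjusted p = 0.0137), both called, with the brightest at -0.22. The rise of DNAJB5 was lost without either wide array (adjusted p = 0.0650 and 0.0616). Without both wide arrays none of these 4 probes passed, with 0.36 (adjusted p = 0.0614) for DNAJC16, 0.28 (adjusted p = 0.287) for DNAJC11, and -0.26 (adjusted p = 0.136) and 0.18 (adjusted p = 0.213) for DNAJB5. With loess per block DNAJC16 passed at 0.40 (adjusted p = 0.00797), DNAJC11 gave 0.15 (adjusted p = 0.339), and the DNAJB5 probes gave -0.18 and 0.23 and did not pass. In the authors' deposited table the DNAJB5 probes gave -0.08 (adjusted p = 0.667 in the same model) and 0.35 (adjusted p = 0.0170).

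DNAJA1, a cytosolic J protein that carries a farnesyl anchor, gave -0.56 and -0.52 at its 2 probes, with adjusted p of 0.0551 and 0.0791, and did not pass.

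Probes of 1 gene often disagreed. Of 27 genes with several member probes, 11 had the same sign at all of them. A call was made in 8 of the 27, in 3 of these with all probes of 1 sign, and in none of the 27 did every probe pass. Of the 15 called probes, 10 lie on such genes and 5 on genes with a single probe. The same counts over all genes with several probes are not given, so these do not set the members apart. Whether all spots of a gene hold the same transcript was not tested.

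**Figure D3:**
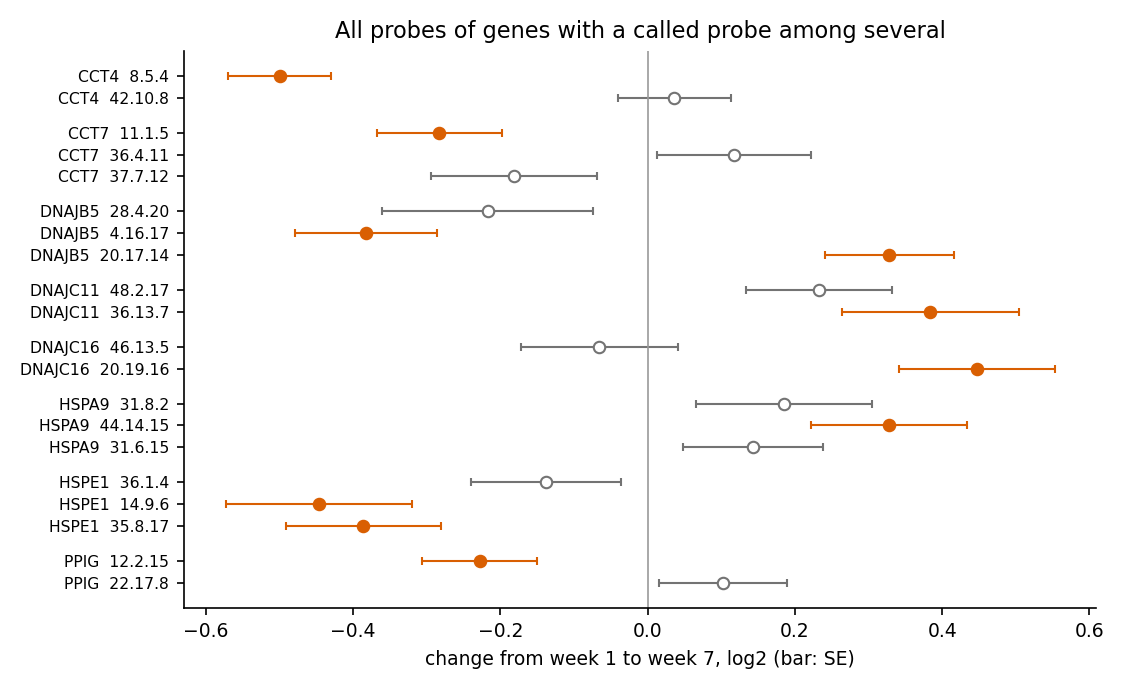
Change from week 1 to week 7 (x axis, log2, with SE bars) at every probe of the 8 genes that have several probes and at least 1 call (y axis, brightest probe first). Filled points passed; DNAJB5 has filled points on both sides of 0, and HSPE1 has 2 on the lower side.

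Cyclophilins and FKBP proteins are the prolyl isomerases, and they hold both rises among brightest probes. There 1 of 6 cyclophilin genes was called higher and 1 lower, and 1 of 7 FKBP genes was called higher. Of all genes 9.45% were called higher and 8.31% lower, so these small counts do not set the families apart. PPIC read -0.31, -0.19, -0.07 and -0.14 in lean samples and -0.42, -0.28, -0.04 and -0.16 in fat samples. At week 7 it stood at 0.45, 1.00 and 0.09 in lean and 0.20, 0.21 and 0.85 in fat birds. All 6 late arrays lay above all 8 early ones, and the highest in each line was the wide array. The rise was 0.66 (SE 0.12, 1.58-fold, adjusted p = 0.000522), with 0.68 in lean and 0.64 in fat birds. Without both wide arrays it was 0.43 (adjusted p = 0.00879) and the authors' deposited table gave it as 0.46. The shared week 7 scan, outside the model, read -0.09, below the other week 7 arrays. Of its steps, week 1 to 3 gave 0.32, week 3 to 5 gave -0.06 and week 5 to 7 gave 0.40, none called alone.

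FKBP1A, the target of the drug FK506 and a partner of calcium release channels, changed less but tightly. Its week 1 ratios were -0.10, -0.06, -0.08 and -0.21 in lean and -0.17, -0.18, 0.02 and -0.13 in fat samples. At week 7 they were 0.18, 0.06 and 0.17 in lean and 0.03, 0.08 and 0.33 in fat birds. No late array in the model reached down to the early ones. The rise came to 0.25 (SE 0.07, 1.19-fold, adjusted p = 0.0229), and it was 0.21 (adjusted p = 0.0885) without fat week 7 replicate 4. With both files of the shared scan, which read -0.05, it was 0.21 (adjusted p = 0.0616). It was 0.23 (adjusted p = 0.105) without both wide arrays, 0.19 (adjusted p = 0.108) with loess per block and 0.18 in the authors' deposited table (adjusted p = 0.147 in the same model).

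PPIG, a nuclear cyclophilin bound to splicing factors, fell from -0.05, -0.14, 0.08 and -0.21 in lean samples to -0.22, -0.38 and -0.38. In fat birds the ratios went from -0.10, 0.00, -0.22 and -0.07 to -0.24, -0.37 and -0.31. Early and late arrays did not overlap, though the nearest of them both read -0.22 at this rounding, and the shared scan, outside the model, read -0.15, within the range of week 1. The change of -0.23 (SE 0.08, 1.17-fold) had an adjusted p of 0.0464, close to the threshold, and the other PPIG probe gave 0.10 (adjusted p = 0.418). The call ended without any 1 of 17 arrays, 6 of week 1, 4 of week 7 and 7 of the ages between, with the change at -0.24 to -0.20. It was -0.21 (adjusted p = 0.199) without both wide arrays, -0.22 (adjusted p = 0.101) with loess per block and -0.22 in the authors' deposited table (adjusted p = 0.145 in the same model).

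PPID, a cyclophilin that serves HSP90, gave -0.32 with an adjusted p of 0.0536 and did not pass. Its lowest week 7 value in each line came from the wide array, at -0.60 in lean and -0.77 in fat birds. PPIB, the main cyclophilin of the endoplasmic reticulum, ran from -0.12 to 0.16 over its 4 probes, and FKBP4, an HSP90 cofactor of steroid receptors, gave 0.20. None of these was called.

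**Figure D4:**
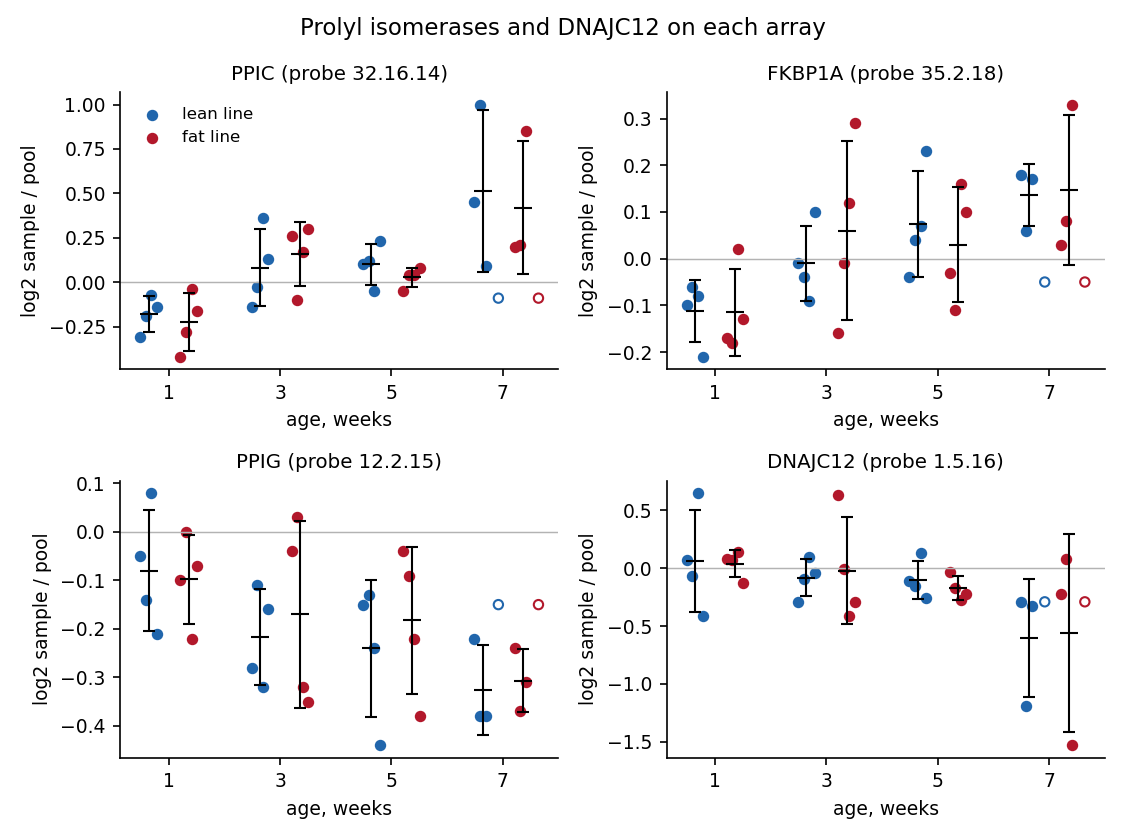
Log2 ratio of sample over pool (y axis) of PPIC, FKBP1A, PPIG and DNAJC12 on each array by age in weeks (x axis). Filled points are arrays, blue for lean and red for fat, and bars are mean and SD. Open circles are the shared week 7 scan, which no mean includes. PPIC and FKBP1A have all filled week 7 points above those of week 1, and DNAJC12 reaches -1.53 on fat week 7 replicate 4. The open circles, at -0.09 for PPIC and -0.05 for FKBP1A, lie within the range of week 1.

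No probe passed in the 4 remaining families, HSP90 (2 probes), small heat shock proteins (8), BAG (2) and disulfide isomerases (4). Of all tested probes 16.0% passed, so the lack of calls among so few probes says little. In HSP90, the cytosolic HSP90AA1 gave -0.25 (SE 0.11, adjusted p = 0.133), the larger change of the 2 genes, and HSP90B1, its counterpart in the endoplasmic reticulum, gave -0.17. HSP90AA1 ranged from 0.23 to 0.83 at week 1 and from -0.12 to 0.51 at week 7, so the ages overlapped. It gave -0.26 (adjusted p = 0.298) without both wide arrays. It passed in 5 of 52 alternatives, among them fat week 7 replicate 3 left out (-0.33, adjusted p = 0.0431), scaling between arrays (-0.35, adjusted p = 0.0328), median centring (-0.34, adjusted p = 0.0210) and all 32 arrays (-0.35, adjusted p = 0.0498). Among small heat shock proteins, which hold unfolded clients without ATP, HSPB3 had the largest value of its family, 0.28 (SE 0.13, adjusted p = 0.150, and 0.28 without both wide arrays), and the 8 probes of the family ran from -0.16 to 0.28. Both BAG genes gave small negative values, -0.10 for BAG3 and -0.05 for BAG4. The disulfide isomerases gave -0.37, -0.11 and 0.21 at the probes of PDIA3, a partner of calnexin, and -0.18 for PDIA5.

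Members can also be sorted by where their proteins work, a grouping chosen after the values were seen and given with no test. Of 13 genes placed in the endoplasmic reticulum, 11 had a negative change at the brightest probe, with a median of -0.11. That stands beside 36 of 57 members, with a median of -0.10, and 54.9% of all genes. At the brightest probe none of these 11 passed, and PPIC was the sole gene called, higher. Over all probes 2 genes of this set had a call, both higher, namely PPIC and DNAJC16 at its weaker probe. The 7 mitochondrial genes had a median of -0.04, and none was called at the brightest probe. Over all their 15 probes, 4 were called, 2 higher and 2 lower, where 16.0% of all tested probes were called. The other 37 genes, mostly cytosolic or nuclear, had a median of -0.05, with 1 called higher and 6 called lower at the brightest probe. Of all genes, 9.45% were called higher and 8.31% lower. These 6 are the TRiC subunits CCT4, CCT8, CCT6A and CCT7, with DNAJC12 and PPIG, so they add no call to those above.

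Single steps of age gave little. Limma called none of the members from week 3 to 5 (0.0613% of all probes), with 2 at an unadjusted p under 0.05 against 2.8% of all probes. It called none from week 5 to 7 (0.0% of all probes), with 16 at an unadjusted p under 0.05 against 17.9% of all probes. A test of any change with age passed at 4 member probes (4.12%, against 5.35% of all), those of CCT4 and PPIC and the weaker probes of HSPE1 and DNAJC16 described above, and 18 members had an unadjusted p under 0.05 against 21.3% of all probes. The count of 4 became 8 when fat week 7 replicate 3 was dropped (8.25%, against 6.29% of all probes), and 7 when replicate 1 of that group was (7.22%, against 9.42%).

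Other genes of the folding machinery, such as cochaperones, prefoldins and glycoprotein chaperones, were followed beside the members. Of 63 listed, 31 were measured, 2 passed higher and 3 lower at week 7, and the median was -0.07. Over all genes 9.45% passed higher and 8.31% lower, with a median of -0.03. The 31 include ST13P5, matched by name in place of the listed ST13, which did not pass. Markers of other cells moved with age as well. Dividing cell markers had 9 of 14 genes measured, 7 of them lower and 1 higher, with a median of -0.69. Their mean ratio ran from 0.30 to 0.65 on arrays of week 1 and from -0.55 to -0.21 at week 7. Red blood cell markers had 6 of 12 measured, 3 lower and none higher. The 6 include ALAS1, matched by a synonym in place of the listed ALAS2, which did not pass. The mean ratio of these markers, with ALAS1 among them, ran from 0.23 to 1.19 at week 1 and from -0.48 to -0.09 at week 7. Their part in the changes of the folding genes was not tested. Fewer markers passed in the other lists, with 1 higher and 1 lower of 9 for lymphocytes and macrophages, 1 lower of 6 for muscle, cartilage and bone, 2 lower of 8 for fibroblasts and matrix, and 1 higher and 1 lower of 7 for neural lobe, glia and hypothalamus. The 7 include MBL2, a different gene matched by a synonym in place of the listed MBP, which did not pass.

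The second question was whether the lines differ in these families. Averaged over the 4 ages, limma called none of the 97 probes (0.688% of all probes), with 15 at an unadjusted p under 0.05, or 15.5% of members against 16.1% of all probes. The median fat minus lean difference was 0.00 over members and 0.01 over all probes, and 48 members were higher and 49 lower in fat birds. The count of calls became 2 when fat week 7 replicate 3 was dropped (2.06%, against 2.04% of all probes), and 1 when replicate 1 of week 7 was dropped from the lean line (1.03%, against 0.974%) or the fat line (1.03%, against 0.708%). DNAJB12, a J protein of the endoplasmic reticulum membrane, came nearest, and was chosen after its values were seen. It ran from -0.54 to -0.03 over the 15 fat arrays, with a median of -0.12, and from -1.27 to -0.21 over the 15 lean arrays, with a median of -0.40, so the lines overlapped. The difference was 0.26 (SE 0.08, adjusted p = 0.112), and the other DNAJB12 probes gave 0.12 and 0.00. Its adjusted p was 0.0477 on leaving out lean week 7 replicate 1, 0.0383 on leaving out fat week 7 replicate 3 and 0.0440 with replicate 3 left out of all groups. With the replicate number as a block its adjusted p was 0.0160, the lowest of the alternatives. Scaling between arrays gave 0.21 (adjusted p = 0.0354), and without both wide arrays the difference was 0.18 (adjusted p = 0.294).

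At single ages the members gave no call either. None passed at week 1, 3 or 5, where 0.0% of all probes passed, with 2, 1 and 4 members at an unadjusted p under 0.05 against 3.62%, 3.13% and 3.85% of all probes. The member at week 3 is the DNAJC16 probe that rose with age, chosen after its values were seen. It read -0.10, -0.25, -0.33 and -0.39 in fat birds and 0.31, 0.34, 0.47 and 0.32 in lean birds, with no overlap, yet its difference of -0.63 (SE 0.14) had an adjusted p of 0.222. At week 7 none passed, against 0.0204% of all probes (0.00681% higher and 0.0136% lower), with 23 members at an unadjusted p under 0.05, or 23.7% of them against 21.1% of all probes. Differences at week 7 spread more than at earlier ages. Each line then had 3 arrays in the model instead of 4, a wide array among them. The spread without the wide arrays is not given. The central 95% of members ran from -0.71 to 0.52 at week 7, from -0.36 to 0.33 at week 5 and from -0.27 to 0.19 at week 3. All probes widened too, from -0.33 to 0.31 at week 3 to -0.65 to 0.52 at week 7. Leaving out 1 array changed the count of calls at week 7. It was 20 members when fat week 7 replicate 3 was dropped (20.6%, against 8.16% of all probes) and 9 when lean week 7 replicate 1 was (9.28%, against 6.66%). Both fits kept the wide arrays and left the smaller group with 2 arrays. Without both wide arrays the count was 0. Lymphocyte and macrophage markers were higher in fat birds at 9 of 9 genes over the ages, with a median of 0.24 and none called, and their part in these line values was not tested.

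**Figure D5:**
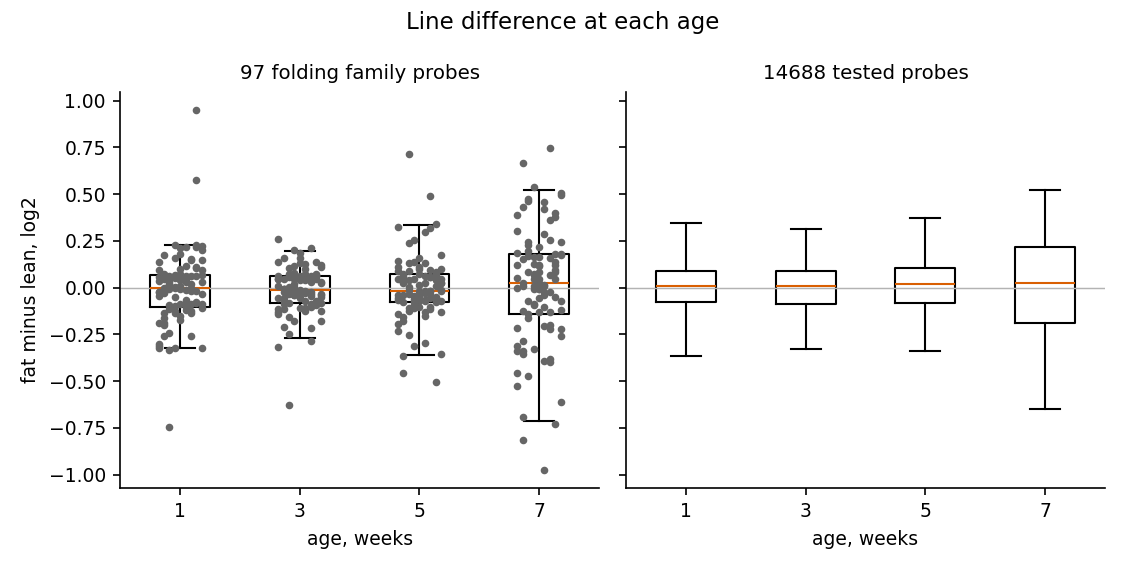
Fat minus lean difference (y axis, log2) at each age in weeks (x axis), for the 97 member probes (left, points are probes) and all 14688 tested probes (right). Boxes are quartiles with the median in orange and whiskers the central 95%. The whiskers are widest at week 7, from -0.71 to 0.52 for the members. At that age each line has fewer arrays in the model, a wide array among them.

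A test of whether the line difference depends on age called none of the members (0.0% of all probes), with 5 at an unadjusted p under 0.05 against 4.32% of all probes. The 3 brightest probes with the smallest unadjusted p were those of DNAJB13 (0.00284), PDIA3 (0.0150) and BAG4 (0.0278), all with an adjusted p near 1. The weaker DNAJC16 probe that rose with age had an unadjusted p of 0.00550 in this test and did not pass. Its lines did not overlap at week 3, as given above, but neither test passed, so unlike courses of the lines are not shown. The rise of this probe is a mean over both lines. DNAJB13, a J protein known from sperm flagella, stood at -0.14, 0.65 and 0.39 in fat birds at week 7 and at -0.32, -0.68 and -0.34 in lean birds, with no overlap. Its difference there was 0.75 (SE 0.16, adjusted p = 0.0606), which missed the threshold, and it was -0.09 at week 1. It passed without any 1 of 4 week 7 arrays, the lean replicates 1 and 4 and the fat replicates 1 and 3, at 0.57 to 0.97 (adjusted p = 0.0073 to 0.0380), and with the header day as a random block (0.76, adjusted p = 0.0414). Without both wide arrays it was 0.59 (adjusted p = 0.939), and the authors' deposited table gave 0.29. BAG4, a cofactor that releases clients from HSP70, stood at -0.24, 0.18 and -1.02 in fat and 0.08, 1.07 and 0.21 in lean birds at week 7. The lines overlapped, the extremes were the wide arrays, and the difference of -0.81 (adjusted p = 0.0845) was -0.18 without them. It was -0.51 without the lean wide array and -0.48 without the fat one. PDIA3 had a difference of 0.43 (adjusted p = 0.116) at week 7, with overlapping lines, and 0.10 without the wide arrays, 0.27 without the lean one and 0.26 without the fat one. Both genes passed without fat week 7 replicate 3, with an adjusted p of 0.0121 for BAG4 and 0.0380 for PDIA3, or without lean week 7 replicate 1, with 0.0257 for BAG4 and 0.0221 for PDIA3. With the replicate number as a block BAG4 passed too.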

How the data were processed

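Each array has a deposited file that, per the file headers, came from TIGR Spotfinder 2.2.4, with intensity and local background of both dyes, other measures of each spot such as its area, and quality scores and saturation as fractions. The authors also deposited a table of log2 ratios, whose normalization is not given in the sources used here. Its columns had medians of 0.04 to 0.19 and correlated with the ratios below at 0.39 to 0.65 across probes. Symbols are those of the platform's annotation, which pairs 10601 probes with 1 gene.

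From the files, spots marked X, Y or Z by that software in either dye were left out, intensities were divided by area, background was corrected with normexp (offset 50), and ratios were normalized by loess within each array. Tested probes, 14688 in all, had a value on 24 or more arrays and on 2 or more fitted arrays of every group. The 2 files of the shared scan had the same area and score at 54.4% of spots, against at most 1.98% in any other pair, and correlated at 0.995. Background already taken off in 1 of them was added back. They count as 1 scan.

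A model with a mean for each of 8 groups was fitted with limma 3.58.1 in R 4.3.3 on 30 arrays, two-sided, with Benjamini-Hochberg adjustment over all tested probes and a threshold of 0.05. It was tested on simulated data. The number of arrays limits the precision. Alternatives were other background, normalization and filter settings, other sets of arrays, blocks, array weights and the authors' table. Plots used matplotlib 3.10.9.

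By rule, the text names, at the brightest probe, members past the threshold for line, for week 1 to 7 (up to 12 per direction) or for a step (up to 3), the 3 smallest interaction p values, and for other families the largest change. Other probes and members given beside them were chosen after their values were seen. Members, lists and this rule were chosen with earlier results of these data known.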

Additional observations from a re-analysis of the deposited data

Results flagged for a closer look

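In the 22 probes followed in detail, each group of 4 arrays was searched for a sample far from the other 3, which chance alone marks in about 1 in 20 groups. Of 129 groups, 3 had such a sample. PDIA3 read 0.0473 on lean week 1 replicate 3, against 0.196 to 0.211 on the other lean arrays of that age. HSPD1 read -0.748 at its brightest probe on fat week 3 replicate 4, against 0.256 to 0.365 on the others. HSPE1 read -0.217 at a weaker probe on fat week 1 replicate 3, against 0.134 to 0.181. Groups of week 7 hold 3 arrays and were not searched.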

How the results depend on the processing

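CCT4 and PPIC passed from week 1 to week 7 under all 52 alternatives run, at -0.61 to -0.35 and 0.41 to 0.77, and no called member changed sign under any of them. The call was lost for CCT8 in 6, CCT6A in 7, FKBP1A in 12, CCT7 in 14, DNAJC12 in 17 and PPIG in 32 of the 52. Among the weaker probes it was lost for HSPA9 in 24 and DNAJC11 in 19 of 49, HSPE1 in 10 and 4 of 51, DNAJB5 in 6 and 9 of 51 and DNAJC16 in 2 of 49. Probes with 49 alternatives were not tested without dim probes or in the authors' table, so those settings could not end their calls. The count of 15 members called from week 1 to week 7 became 9 (2 higher) with loess per grid block, 9 with array weights, 8 of 72 members in the authors' table, 3 with only the groups compared, 4 without both wide arrays and, a setting also added after the data were seen, 5 when loess per block was used together with the loss of fat week 7 replicate 4. It was 22 (6 higher) with median centring, 14 (4 higher) with scaling between arrays, 14 (3 higher) without dim probes, 10 of 57 (2 higher) with 1 probe per gene and 13 (3 higher) with all 32 arrays. Leaving out 1 array gave 6 to 25, and 1 replicate number 4 to 9. The share of all probes is not given for each setting, so these counts do not show a change particular to the members. TRiC had 1 to 5 probes called lower and none higher in any of these settings.

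For the line over ages, the count of 0 became 1 with scaling and ran from 0 to 2 without 1 array and from 0 to 1 without 1 replicate number. At week 3 it became 1 with scaling or array weights. At week 7 it became 1 with no background subtraction, without dim probes, with 1 probe per gene and with the header day as a random block, and ran from 0 to 20 without 1 array and from 0 to 1 without 1 replicate number. From week 1 to week 3 the count of 1 became 2 with scaling and 3 with array weights, ran from 0 to 2 without 1 array (2 without lean week 3 replicate 1) and was 0 without each replicate number. For any change with age the count of 4 became 2 with all 32 arrays or 1 probe per gene, and ran from 3 to 8 and from 2 to 5 in the same way. The cause was not tested, and the share of all probes is not given for each of these settings.

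Arrays of the same age and number in both lines had correlated deviations from -0.09 to 0.33, over 0.1 in 10 of 15 pairs. Across groups the median was 0.14 for the same number and -0.04 for other numbers. Pairing was accepted only with every pair over 0.1, so the block of replicate number is an alternative and not the main model. With the replicate block the counts were 21 from week 1 to week 7 (17.4% of all probes), 1 for the line over ages (2.03%), 7 for the line at week 7 (5.05%) and 7 for any change with age (6.43%). DNAJB12 passed over ages (0.26, adjusted p = 0.0160), DNAJB13 (adjusted p = 0.0241) and BAG4 (adjusted p = 0.0388) passed for the line at week 7, and HSP90AA1 (-0.30, adjusted p = 0.0174) and HSPD1 (0.73, adjusted p = 0.0336) from week 1 to week 7.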
